A study of Mus musculus with 6 samples.

Results

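The genes described here encode interferon-inducible GTPases, proteins that cells make in quantity after exposure to interferon. They were chosen by name in the deposited count table as 8 guanylate-binding protein genes (Gbp2 to Gbp9) and 2 immunity-related GTPase genes (Irgm1 and Igtp). All 10 were present among the 56413 gene symbols of the table. RNA came from fresh total splenocytes, the mixed white and red cells of the spleen, of wild-type (WT) mice and of Top3b-knockout (Top3b-KO) mice, with 3 libraries per genotype. Top3b encodes topoisomerase III-beta, an enzyme that relaxes DNA and also acts on RNA, and the submitters name tumour formation and disturbed immunity as their question. The labels give the genotype alone, so the knockout allele, the strain, the sex and the age of the animals, and whether each library was 1 animal, are not named by them. No treatment with interferon or a pathogen is named in either group, so the values are levels in unstimulated cells as far as the labels say.

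Interferon-gamma binds its receptor, activates the kinases JAK1 and JAK2, and thereby switches on these GTPases, in part through the factor IRF1. Promoters of its targets can hold a palindromic DNA motif called the gamma-activated site (GAS). IRF family members bind the interferon-stimulated response element (ISRE). The guanylate-binding proteins then gather on vacuoles and membranes of intracellular bacteria and parasites and promote inflammasome activation, while IRGM proteins stay on the cell's own membranes and hold the other immunity-related GTPases inactive there.

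Total counts ranged from 9941014 to 25473404 per library, with the smallest in Top3b-KO replicate 3. Levels below are CPM, counts scaled to a common library size, with TMM factors, so that 3 counts correspond to between 0.119 and 0.303 CPM, a floor that covers counting error only. Top3b itself was at 86.9 to 95.1 CPM in the WT libraries and 48.2 to 51.5 CPM in the Top3b-KO libraries, and edgeR gave a log2 fold change of -0.87 (SE 0.071, adjusted p 5.78e-06). The knockout allele is not named, and counts per gene do not show which part of Top3b those remaining reads come from. The labels call the libraries replicates without saying that they came from separate animals, so p-values measure the spread between these libraries. In a mixed tissue such as this, fewer cells of a type and less RNA per cell cannot be told apart.

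The stretches of promoter that carry the ISRE letters are shown first. They are a feature outside the expression values that was found in each of these genes with a promoter window. A window of 300 bases, from 250 before to 50 after the RefSeq gene start (build GRCm38.p6), was present for 6 of the 10 genes, and Gbp4, Gbp6, Gbp8 and Gbp9 are named only. The letters searched were GAAA, any 2 bases and GAAA for the ISRE, on both strands, and TTC, any 3 bases and GAA for GAS, which reads the same on both strands. Each line gives 80 bases, 5′ to 3′ in the direction of the gene, with the ISRE letters in capitals, which appear as TTTC, any 2 bases and TTTC where the match lies on the opposite strand.
Gbp2: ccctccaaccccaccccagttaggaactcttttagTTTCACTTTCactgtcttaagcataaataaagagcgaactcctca
Gbp3: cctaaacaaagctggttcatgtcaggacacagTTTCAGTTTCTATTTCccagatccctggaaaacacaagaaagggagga
Gbp5: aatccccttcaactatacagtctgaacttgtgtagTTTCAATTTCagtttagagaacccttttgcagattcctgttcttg
Gbp7: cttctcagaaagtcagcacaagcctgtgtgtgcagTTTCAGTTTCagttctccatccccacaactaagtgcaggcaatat
Irgm1: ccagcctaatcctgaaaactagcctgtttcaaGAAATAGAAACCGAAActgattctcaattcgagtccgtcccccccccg
Igtp: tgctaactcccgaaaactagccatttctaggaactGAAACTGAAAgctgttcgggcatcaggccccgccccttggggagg
In this order, the stretches lie at chr3:142620569-142620648 (plus strand), chr3:142559967-142560046 (plus strand), chr3:142496734-142496813 (plus strand), chr3:142530248-142530327 (plus strand), chr11:48871403-48871482 (minus strand) and chr11:58199487-58199566 (plus strand) of GRCm38.p6, which is not the build the reads were aligned to.

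The ISRE letters occurred in 6 of these 6 genes, against 3.99% of the 27025 genes with a window and 3.44% of all 32851 windows of the same length. On chromosome 3 the matches lay on the strand opposite to the gene, with the first base 59 bases upstream of the start in Gbp2, 53 in Gbp7 and 165 in Gbp5. Gbp3 held a pair of matches that overlap each other, at 45 and 39 bases upstream, in its first window and none in its second window, which belongs to a later start. On chromosome 11 the matches lay on the strand of the gene, at 34 bases upstream in Igtp and, overlapping each other, at 30 and 24 bases upstream in Irgm1. The GAS letters occurred in 3 of the 6 (Gbp5, Gbp7 and Igtp), against 9.55% of genes. None of the GAS matches overlapped an ISRE match in these windows. Neither motif was particular to the 10 genes. Of 5 other interferon-inducible GTPase genes with a window, 4 held the ISRE letters and 3 the GAS letters. Such matches are descriptions of letters and no sign of binding in these cells.

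**Figure D1:**
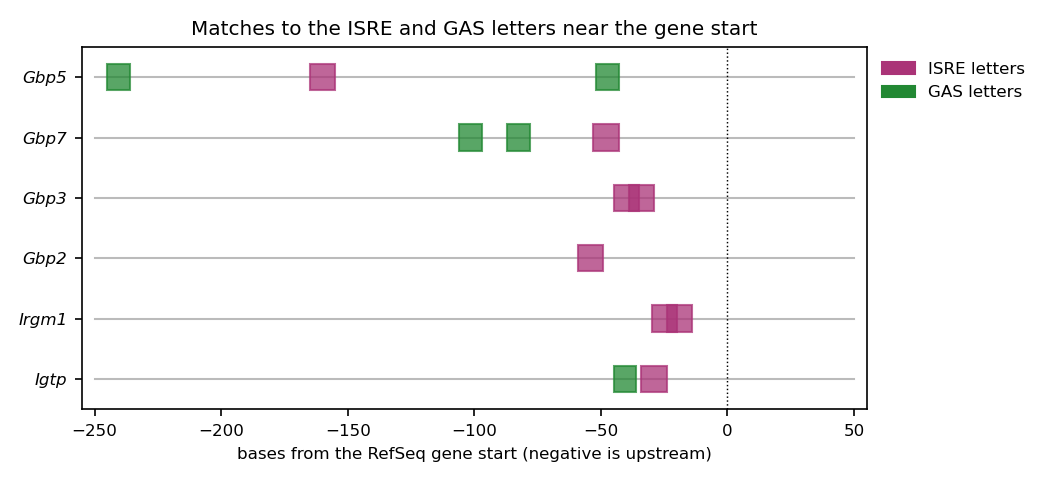
Positions of ISRE letters (10 bases) and GAS letters (9 bases) in the first promoter window of 6 GTPase genes, in bases from the RefSeq gene start on the horizontal axis. Each gene has at least 1 ISRE match, and all but that of Gbp5, at 165 bases upstream, lie within 59 bases of the start, while GAS letters appear in Gbp5, Gbp7 and Igtp.

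The genes sit in 3 clusters of related copies. In RefSeq the order on chromosome 3 is Gbp5, Gbp7, Gbp3, Gbp2b and Gbp2, and on chromosome 5 it is Gbp8, Gbp9, Gbp4, Gbp10, Gbp6 and Gbp11. Irgm1 and Igtp lie on chromosome 11 together with Tgtp1, Tgtp2, Ifi47 and Irgm2. Identity of coding sequences in GENCODE M21 was taken over all positions of an end-to-end alignment, gaps included. Among the 10 genes it was highest within the chromosome 5 cluster, at 89.6% between Gbp6 and Gbp9, 87.2% between Gbp4 and Gbp6 and 87.1% between Gbp4 and Gbp9. Gbp3 and Gbp7 shared 76.0%, Irgm1 and Igtp 64.6%, and Gbp5 stood farthest from the other guanylate-binding genes, at 46.3% (Gbp8) to 57.8% (Gbp2). Differing lengths lower this measure, and the coding sequence has 2172 bases in Gbp5 and 1575 in Gbp8.

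How reads that match several of these copies were counted is not stated by the submitters, so the share of each longest transcript that also occurs elsewhere was measured in 100-base windows. It was 0% for Gbp2 and Irgm1, between 0.273% and 5.67% for Gbp3, Gbp4, Gbp5, Gbp8, Gbp9 and Igtp, 10.2% for Gbp7 and 51.3% for Gbp6. Most of the shared windows of Gbp7 matched the overlapping gene model Gm43802, which had no counts in any library. For Gbp6 the largest partner was Gm43302, an overlapping model with 0 to 2 counts per library, and the coding sequence of Gbp6 was 98.4% identical to that of Gbp10. Counts of Gbp6 and Gbp10 are therefore uncertain, and those of the other 9 genes rest mostly on sequence of their own at this window length.

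None of the 10 GTPases was called different between genotypes against the spread of the libraries. In the fit over all 18716 tested genes, 0 of 10 passed the threshold of 0.05 on the Benjamini-Hochberg adjusted p of edgeR (quasi-likelihood F test), where 0.0107% of all genes did, 0.00534% in each direction, higher or lower. At an unadjusted p under 0.05 there were also 0 of 10, against 5.52% of all genes (1.83% higher and 3.69% lower), and DESeq2 and limma-voom also called 0. The log2 fold changes, Top3b-KO against WT, ran from -0.015 (Gbp9) to 0.15 (Gbp2), with 7 above 0 and 3 below (Irgm1 was at 0.0021 with upper quartile scaling), and a median of 0.073 against -0.0029 over all tested genes. The adjusted p by edgeR lay between 0.91 and 1.00. For all genes but Gbp6 the 95% intervals of the difference stayed between -0.19 and 0.33 on the log2 scale, which is 0.877-fold to 1.25-fold. In simulated counts of this design, over 18716 genes and 3 runs, changes were planted in genes of at least 1 CPM. They were of 1.2-, 1.5-, 2- and 4-fold, with 150 genes for each over the runs. Those of 1.5-fold were recovered in 52.7% and those of 1.2-fold in 6.67% of planted genes. At the adjusted p, changes near 1.2-fold were thus mostly not detectable over such genes. So many planted changes make the adjustment less strict than in the real data, where 2 genes passed. The shares recovered may therefore be too high for the real comparison. Recovery was not computed apart for the levels of the 10 GTPases, whose means ran from 9.99 CPM (Gbp6) to 153 CPM (Gbp9).

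**Figure D2:**
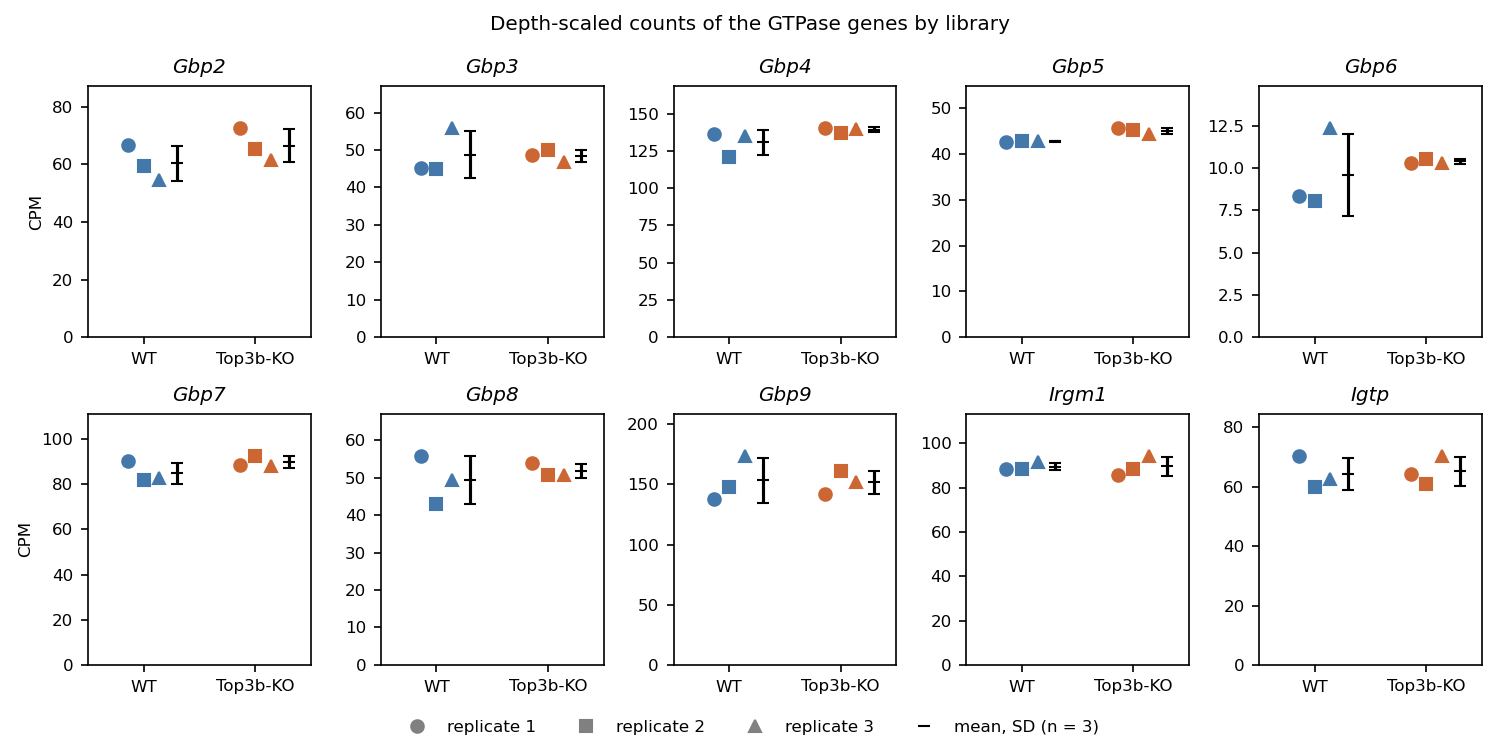
CPM of each GTPase gene in the 3 WT and 3 Top3b-KO libraries, one panel per gene with its own axis from 0, the symbol giving the replicate and the bar the mean and SD. The genotypes overlap for 8 genes, and for Gbp4 and Gbp5 the Top3b-KO libraries lie just above the WT libraries.

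Gbp2, a lipid-anchored protein that coats pathogen vacuoles, had the highest fold change of the 10 with all libraries and TMM scaling, but Gbp6 was above it with WT replicate 3 left out (0.34 against 0.080) and after thinning to the smallest library total (0.20 against 0.098). It was at 66.8, 59.5 and 54.6 CPM in WT replicates 1 to 3 and at 72.7, 65.4 and 61.5 CPM in the Top3b-KO replicates. The highest WT library lay above 2 of the Top3b-KO libraries, so the genotypes overlapped. The means were 60.3 ± 6.12 CPM and 66.5 ± 5.66 CPM (SD, n = 3), and the log2 fold change was 0.15 (SE 0.085, interval -0.032 to 0.33, edgeR adjusted p 0.91).

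Gbp5, which acts with the NLRP3 inflammasome, was the steadiest of the set. Its WT libraries held 42.6, 42.8 and 43.0 CPM and its Top3b-KO libraries 45.8, 45.2 and 44.3 CPM. All Top3b-KO libraries were above all WT libraries, by a small step. The WT coefficient of variation was 0.414%, below the 3.88% that counting error alone gives at these counts. The log2 fold change was 0.076 (SE 0.074, interval -0.080 to 0.23, edgeR adjusted p 0.95).

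Gbp7, known for assembling the NADPH oxidase on phagosomes, was at 90.1, 81.8 and 82.7 CPM in WT and at 88.5, 92.7 and 87.9 CPM in Top3b-KO. WT replicate 1 fell among the Top3b-KO libraries. Gbp3 was at 45.1, 45.0 and 55.9 CPM in WT and at 48.7, 49.9 and 46.7 CPM in Top3b-KO. Its highest library was thus a WT one, and the means, 48.7 ± 6.27 and 48.4 ± 1.60 CPM, nearly coincided. The log2 fold changes were 0.081 (SE 0.068) for Gbp7 and -0.0043 (SE 0.088) for Gbp3. Summed over Gbp2, Gbp3, Gbp5 and Gbp7, the chromosome 3 genes came to 237 ± 7.79 CPM over WT libraries and 250 ± 8.15 CPM over Top3b-KO libraries.

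The chromosome 5 genes held the most abundant of the set by count. Gbp9 was at 138, 148 and 174 CPM in WT and at 142, 161 and 152 CPM in Top3b-KO. The spread of the WT libraries enclosed every Top3b-KO library, and the log2 fold change was -0.015 (SE 0.081). Gbp4 was at 136, 121 and 135 CPM in WT and at 140, 137 and 140 CPM in Top3b-KO. All Top3b-KO libraries were above all WT libraries, although the nearest pair differed by far less than the 8.58 CPM standard deviation within WT. Its log2 fold change was 0.090 (SE 0.067, interval -0.050 to 0.23, edgeR adjusted p 0.92). Gbp4 and Gbp5 were thus 2 of 10 genes with Top3b-KO entirely above WT, and 0 lay entirely below, where 5.39% of all tested genes lay entirely above and 5.63% entirely below.

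Gbp8 was at 55.9, 42.9 and 49.4 CPM in WT and at 53.9, 50.7 and 50.8 CPM in Top3b-KO. The WT libraries held both its highest and its lowest value. Gbp6 was the scarcest of the 10, by counts that are uncertain because of its shared sequence. It was at 8.33, 8.06 and 12.4 CPM in WT, from 123 to 197 counts, and at 10.3, 10.5 and 10.3 CPM in Top3b-KO. WT replicate 3 was the highest of the 6 libraries and the other WT libraries the lowest. The log2 fold changes were 0.070 (SE 0.089) for Gbp8 and 0.11 (SE 0.15, interval -0.20 to 0.43) for Gbp6, the widest interval of the set. The Gbp6 value was 0.34 without WT replicate 3, 0.020 without WT replicate 1 and 0.0049 without WT replicate 2. Summed over Gbp4, Gbp6, Gbp8 and Gbp9, the chromosome 5 genes came to 343 ± 25.8 CPM over WT libraries and 353 ± 6.66 CPM over Top3b-KO libraries.

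The 2 immunity-related GTPases had fold changes close to 0. Irgm1, a regulator that sits on the cell's own membranes and is linked to autophagy, was at 88.7, 88.5 and 91.4 CPM in WT and at 85.9, 88.6 and 94.5 CPM in Top3b-KO. The Top3b-KO libraries held both the lowest and the highest value, and the log2 fold change was -0.0013 (SE 0.067, interval -0.14 to 0.14). Igtp, also called Irgm3 and placed mainly on the endoplasmic reticulum, was at 70.4, 59.8 and 62.8 CPM in WT and at 64.3, 60.9 and 70.5 CPM in Top3b-KO. The genotypes overlapped almost completely, with a log2 fold change of 0.015 (SE 0.081).

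**Figure D3:**
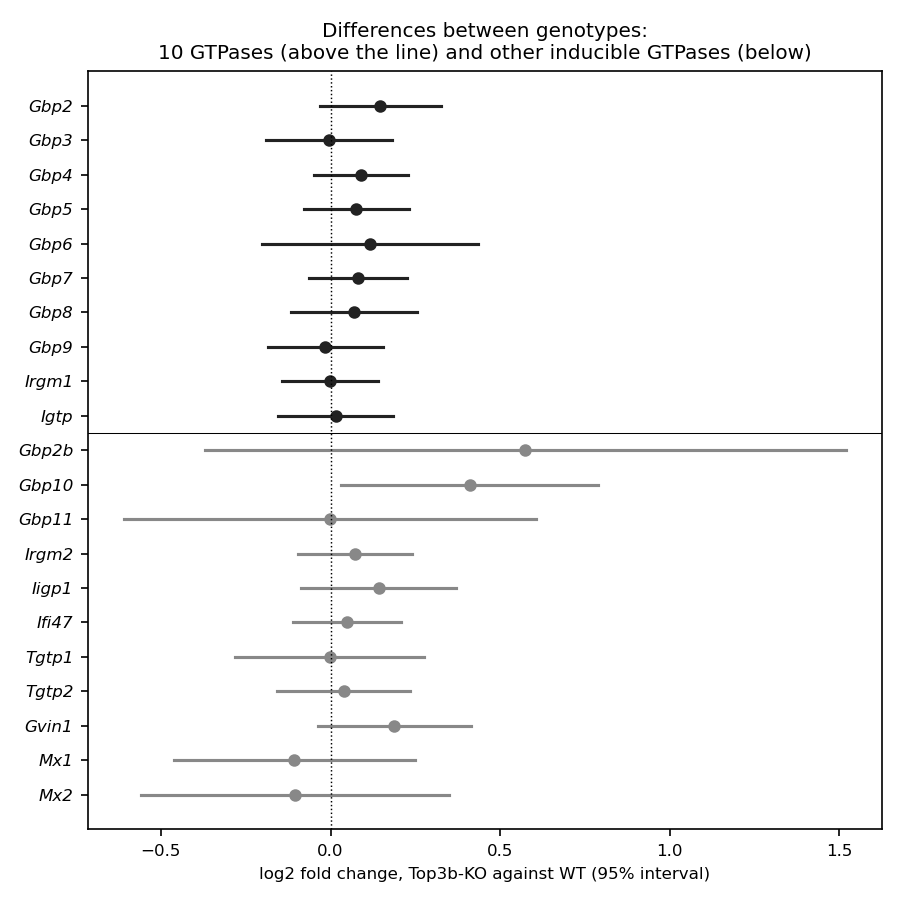
Log2 fold change of Top3b-KO against WT with its 95% interval, for the 10 GTPases (dark, above the line) and 11 other interferon-inducible GTPases (grey, below). Each interval of the 10 includes 0, and of the others only that of Gbp10 (0.032 to 0.79) does not, before adjustment.

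All 10 genes together gave 742, 697 and 761 CPM in WT and 753, 763 and 758 CPM in Top3b-KO. WT replicate 2 was the lowest library and WT replicate 3 lay within the range of the Top3b-KO libraries. The means were 734 ± 32.8 CPM and 758 ± 5.05 CPM, and no test was made on this sum because its members were picked by name with results known. Gbp9 supplied 20.9 ± 2.16% of the sum in WT and 20.0 ± 1.15% in Top3b-KO, and Gbp4 supplied 17.8 ± 0.512% and 18.4 ± 0.335%. The shares of Gbp9 differed by less than its spread between libraries, and those of Gbp4 by slightly more than its WT standard deviation.

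Levels of different genes were compared per kb of the longest GENCODE M21 transcript. On this scale Igtp (32.0 ± 2.31 CPM per kb over the 6 libraries), Gbp9 (30.2 ± 2.64) and Gbp4 (29.7 ± 1.58) led, and these neighbours did not differ beyond their spread, with Igtp above Gbp9 in 4 of 6 libraries and Gbp9 above Gbp4 in 3 of 6. Gbp2 (25.2 ± 2.50) and Irgm1 (23.4 ± 0.777) followed and also overlapped. Below them Gbp3 (18.1 ± 1.53) was lower than Irgm1 in 6 of 6 libraries. Gbp7 (15.5 ± 0.759) and Gbp8 (15.0 ± 1.32) overlapped each other, and Gbp5 (11.7 ± 0.356) was lower than Gbp8 in 6 of 6. Gbp6 was last at 2.35 ± 0.375 CPM per kb, but 51.3% of its 100-base windows are shared, so its level is uncertain. The order of the upper genes depends on the length used. With the median transcript length, Gbp4 ranked 1, Gbp3 2 and Igtp 6, while Gbp5 and Gbp6 kept ranks 9 and 10.

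**Figure D4:**
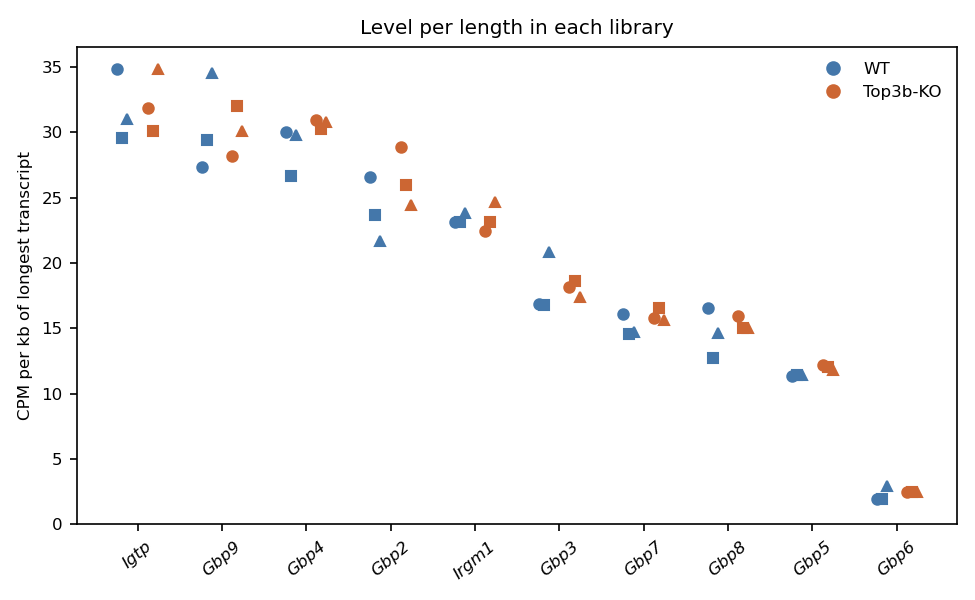
CPM per kb of longest transcript for the 10 genes in every library, ordered by their mean over the 6 libraries, with WT and Top3b-KO side by side and the symbol giving the replicate. The genes spread from 2.35 (Gbp6) to 32.0 (Igtp) CPM per kb, and the genotypes overlap in every gene except Gbp4 and Gbp5.

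The members did not all vary together across libraries. Gbp3, Gbp6 and Gbp9 were each highest in WT replicate 3, by 0.21, 0.32 and 0.19 on the log2 scale above their 6-library mean. Gbp2 was lowest in that same library, at -0.21, and Gbp2 and Gbp9 therefore ran in opposite directions over the WT libraries. WT replicate 2 was the lowest library for 6 of the 10 genes, where 18.3% of the 11655 genes with at least 5 CPM had their lowest value there. The WT coefficient of variation exceeded that of Top3b-KO for 8 of 10 members, and it did so for 65.7% of those 11655 genes.

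**Figure D5:**
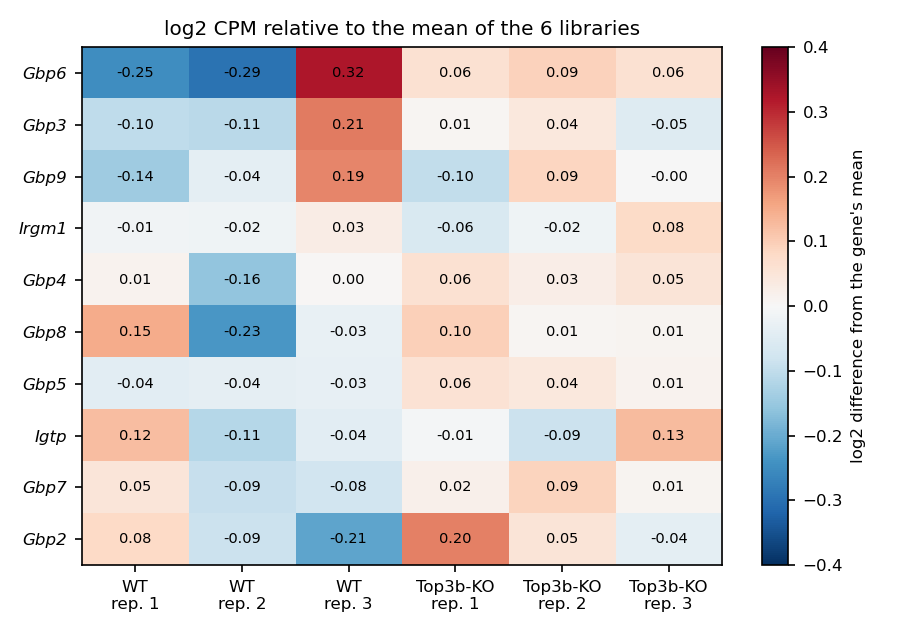
Log2 CPM of each gene in each library relative to the gene's mean over the 6 libraries, with genes ordered by their value in WT replicate 3. Gbp6, Gbp3 and Gbp9 are high in WT replicate 3, where Gbp2 is low at -0.21, and Gbp8 is low in WT replicate 2 at -0.23.

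Summed levels of other lists also differed between libraries, and the pairs set side by side here were picked after their values were seen. The summed CPM of 15 type I interferon targets was 377, 476 and 536 for WT replicates 1 to 3, against 425, 456 and 513 for Top3b-KO, lowest in WT replicate 1 and highest in WT replicate 3, the libraries in which Gbp9 was also lowest and highest. Within Top3b-KO the orders differed, with the sum highest in replicate 3 and Gbp9 in replicate 2. Summed T cell markers (8 of 8 detected) were at 1354, 1198 and 1174 CPM in WT and 1352, 1325 and 1299 CPM in Top3b-KO, and Gbp2 had the same order of libraries within each genotype. WT replicate 2, where 6 members were lowest, had the highest sum of erythroid markers, 1745 CPM against 814 to 1179 CPM in the other libraries, with 7 of 7 detected. Neutrophil markers ranged from 463 CPM in Top3b-KO replicate 1 to 1493 CPM in Top3b-KO replicate 3, where Irgm1 and Igtp had their highest values. The orders differed elsewhere, since WT replicate 2, next in neutrophil markers at 1099 CPM, had the lowest Igtp value, 59.8 CPM. In WT replicate 1 Igtp was at 70.4 CPM, near its 70.5 CPM in Top3b-KO replicate 3, with neutrophil markers at 642 CPM. The part of these cells in the values of the GTPases was not tested.

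Markers of 9 cell types, 61 tested genes in all, held 0 genes past the adjusted threshold by edgeR. At an unadjusted p under 0.05, 2 were higher and 3 lower, against 1.83% and 3.69% of all tested genes. T cell markers had log2 fold changes above 0 in 8 of 8 genes (median 0.096, Lck at 0.057). Erythroid markers were below 0 in 7 of 7 (median -0.37, Hbb-bs at -0.38). The share above 0 over all tested genes was 49.1%. The most abundant markers of other lists were Gzma of natural killer cells at -0.14, Lyz2 of monocytes at 0.016, Slc40a1 of red pulp macrophages at -0.11, Itgax of dendritic cells at -0.18, Ltf of neutrophils at 0.11 and Pecam1 of endothelium at 0.023. Single genes do not stand for their lists. Neutrophil markers had a median of 0.00060 with 4 above 0 and 3 below, and monocyte markers one of -0.0081 with 3 above and 3 below. Endothelial and stromal markers had a median of -0.082 with 1 above 0, Pecam1 itself, and 4 below. Of the 7 genes listed for them 5 were tested, and the others had at most 11 counts in a library. Red pulp macrophage markers (median -0.076) and dendritic cell markers (median -0.099) each had 2 above 0 and 5 below. Natural killer cell markers had 1 above 0 and 6 below (median -0.087). Markers from each of the 9 lists were thus detected in the splenocyte RNA of both genotypes, though not every marker of each list.

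Other inducible GTPases, 11 listed and tested, also gave no call, with 0 past the threshold by edgeR and a median log2 fold change of 0.049. At an unadjusted p under 0.05 there was 1, against 5.52% of all tested genes. That gene was Gbp10, the near-copy of Gbp6. It was at 3.49, 3.93 and 3.64 CPM in WT and at 4.75, 4.36 and 5.97 CPM in Top3b-KO, with every Top3b-KO library above every WT library. Its log2 fold change was 0.41 (SE 0.18, edgeR adjusted p 0.88), and 70.9% of its 100-base windows occur in other genes. Gvin1, a very large inducible GTPase, was also higher in every Top3b-KO library, at a WT mean of 13.3 ± 0.398 CPM and a Top3b-KO mean of 15.3 ± 0.710 CPM, but 97.8% of its windows are shared with other copies. These were 2 of the 11 with Top3b-KO entirely above WT, and 0 lay entirely below. Of all tested genes, 5.39% lay entirely above and 5.63% entirely below.

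On chromosome 11, Irgm2 (47.1 ± 3.75 and 49.4 ± 1.85 CPM in WT and Top3b-KO) and Ifi47 (64.5 ± 5.05 and 66.6 ± 3.19 CPM) overlapped between genotypes. Tgtp1 and Tgtp2, near-identical neighbours with 83.3% and 80.4% of windows found in other genes, had log2 fold changes of -0.0028 and 0.039. Iigp1, the immunity-related GTPase that disrupts parasite vacuoles, was at a WT mean of 25.3 ± 3.90 CPM and a Top3b-KO mean of 27.7 ± 2.18 CPM. The chromosome 3 gene Gbp2b was scarce, at 0.602 ± 0.231 and 1.03 ± 0.617 CPM, as was the pseudogene Gbp11, at 1.51 ± 0.563 and 1.52 ± 0.0859 CPM. Mx1 and Mx2, dynamin-like antiviral GTPases that RefSeq lists as transcribed pseudogenes in the reference strain, both had a log2 fold change of -0.11 and had their highest WT value in replicate 3.

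The genes upstream of the GTPases were also without a called difference. Interferon-gamma itself, Ifng, was detected at 3.68, 2.29 and 3.58 CPM in WT and 3.97, 2.81 and 1.82 CPM in Top3b-KO, with overlapping genotypes. Of 18 tested ligand, receptor and signalling genes, 0 passed by edgeR, and the median log2 fold change was 0.0013. At an unadjusted p under 0.05, 0 were higher and 1 lower, against 1.83% and 3.69% of all tested genes. The lower one was Irf8, a myeloid and B cell transcription factor, at a WT mean of 296 ± 8.60 CPM and a Top3b-KO mean of 267 ± 11.8 CPM (log2 fold change -0.15, adjusted p 0.88 by edgeR). Jak1, the most abundant of the list, was at 1006 ± 23.6 and 1083 ± 9.81 CPM. Irf1 was at 296 ± 23.5 and 295 ± 20.6 CPM. Ifng and Irf8 were picked after their values were seen.

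Of 6 tested genes for the type I interferon receptor, its signalling and its regulation, 0 passed by edgeR and 0 had an unadjusted p under 0.05. Ifnar1 was at a log2 fold change of 0.014 and Tyk2 at -0.13. Ifnb1 and Ifna4 had no counts. Other targets of interferon-gamma, 17 tested, had 0 past the threshold by edgeR, 0 at an unadjusted p under 0.05 and a median of -0.0063. Their most abundant members were the MHC regulators Ciita (425 ± 41.2 and 444 ± 13.4 CPM) and Nlrc5 (321 ± 20.7 and 319 ± 12.9 CPM). For 15 type I interferon targets the counts were again 0 and 0, with a median of 0.017, Eif2ak2 at 0.012 and Ifit2 at 0.080. Among 22 genes for vacuole targeting, prenylation and inflammasomes, with 0 past the threshold and 0 at an unadjusted p under 0.05, the median was -0.0043, with Gdi2 at -0.0030 and Arhgdia at -0.14.

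By the rule for likeness, the genes closest to the mean log2 CPM of the 10 GTPases over the 6 libraries were Ppm1b (Pearson r 0.997), Wtap (0.993), Pgm2l1 (0.992), Ccdc82 (0.991) and Dgcr8 (0.990), out of 9087 candidates with at least 10 CPM. The mean they follow spanned only 0.15 on the log2 scale, from 5.81 in WT replicate 2 to 5.97 in WT replicate 3. All 5 were lowest in WT replicate 2, and the r values are descriptions over 6 libraries that differ in depth and in the marker sums given above.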

How the data were processed

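Ribosomal RNA-depleted total RNA of 6 splenocyte samples was sequenced. The deposited table holds estimated counts per gene symbol, for which the submitters' processing notes name STAR and mm39. No source used here names the counting tool, the annotation or the strand setting, or says how reads matching more than 1 gene were counted. Of 56413 symbols, 22646 had no count and 72 had a value that was not whole within 1e-06, and rounding to whole numbers came first. The labels and the protocol give different read lengths and describe more than 1 library kit, and which applies was not settled. The R-loop data of the study were not analysed here.

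Counts were scaled by TMM and tested with edgeR 4.0.16 (R 4.3.3), quasi-likelihood, robust, two-sided, genotype as the term, on the 18716 genes kept by filterByExpr, with Benjamini-Hochberg adjustment over all of them and a threshold of 0.05. limma 3.58.1 and DESeq2 1.42.0 were alternatives, beside other scalings, filters, thinning, a replicate block and each library left out. The test was tried on simulated data of this design. Totals of 9941014 to 25473404 set the precision. Shared windows, coding identity and lengths came from GENCODE M21, promoters from RefSeq GRCm38.p6, with Biopython 1.88.

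The members and gene lists were chosen with earlier results of these data known. Named genes are the 10 GTPases, Top3b, the other inducible GTPases, the 2 most abundant genes of each pathway list with none past the threshold, the most abundant gene of each marker list and the 5 genes most like the GTPase mean. Genes named outside this rule are said to be so. Of the genes the rule names, 1 is not reported here.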

Additional observations from a re-analysis of the deposited data

How the results depend on the processing

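Over 15 alternatives, 0 of the 10 GTPases passed the adjusted threshold in each, and 1 had an unadjusted p under 0.05 without WT replicate 1 (5.30% of all genes) and 1 without WT replicate 3 (13.2% of all genes). Of 793 log2 fold changes for 53 genes, 721 kept their direction and side of the threshold and 72 changed sign, none of them past the threshold. The mean summed CPM of the 10 GTPases stayed within 1 SD between libraries of its genotype, from 720 to 752 in WT and from 753 to 760 in Top3b-KO. The number of all genes past the threshold, 2, became 44 with no filter, 1 with robust=FALSE, 1 after thinning, 1 with limma-voom and 6 with DESeq2. With each library left out it ran from 1 to 32, with 32 when WT replicate 3 was dropped, 9 when Top3b-KO replicate 1 was dropped and 1 for WT replicate 1, WT replicate 2 or Top3b-KO replicate 2, and the cause was not tested. With the replicate block it was 41, with Gbp6 at 0.16 above Gbp2 at 0.14, Gbp3 at 0.0072, Lyz2 at -0.017 and Ltf at -0.095. Same-numbered libraries correlated in their deviations at 0.196, 0.00067 and 0.032, and differently numbered ones at -0.109 to 0.085. The value for replicate 1 was thus the highest, and those for replicates 2 and 3 lay within the range of differently numbered libraries. The numbers were not taken to pair the libraries, which these values do not settle. Sign changes with no filter were Gbp3 (0.0041), Irgm1 (0.0069), Gbp11 (0.0087), Tgtp1 (0.0069), Irf1 (0.0066) and Gdi2 (0.0050). With limma-voom they were Gbp3 (0.0060), Gbp11 (0.066), Tgtp1 (0.013), Irf1 (0.00090), Lyz2 (-0.037) and Ltf (-0.15), and with DESeq2 Gbp11 (0.0039). With upper quartile scaling they were Irgm1 (0.0021), Gbp11 (0.0029), Tgtp1 (0.00083), Irf1 (0.0021) and Gdi2 (7.7e-05). After thinning they were Igtp (-0.0023), Tgtp2 (-0.028), Nlrc5 (0.0076), Eif2ak2 (-0.026) and Gdi2 (0.00019). Leaving out each library gave ranges that cross 0 for Gbp3 (-0.058 to 0.11), Gbp8 (-0.022 to 0.17), Gbp9 (-0.089 to 0.085), Irgm1 (-0.037 to 0.036), Igtp (-0.039 to 0.082), Gbp11 (-0.28 to 0.23), Tgtp1 (-0.085 to 0.075), Tgtp2 (-0.019 to 0.093), Mx1 (-0.27 to 0.095), Mx2 (-0.32 to 0.100), Ifng (-0.37 to 0.088), Irf1 (-0.054 to 0.063), Nlrc5 (-0.043 to 0.042), Eif2ak2 (-0.12 to 0.13), Ifit2 (-0.018 to 0.22), Gdi2 (-0.041 to 0.040), Lck (-0.013 to 0.19), Lyz2 (-0.18 to 0.22), Ltf (-0.73 to 0.46) and Pecam1 (-0.019 to 0.070). Ranges that kept their sign were 0.080 to 0.22 for Gbp2, 0.036 to 0.12 for Gbp4, 0.071 to 0.088 for Gbp5, 0.0049 to 0.34 for Gbp6 and 0.055 to 0.12 for Gbp7. Among the 10 GTPases Gbp6 had the fewest counts, down to 102 in Top3b-KO replicate 3.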

Other observations

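Copies of the very large inducible GTPases outside the lists, picked after their values were seen, were abundant. Gvin3 had a WT mean of 624 ± 21.7 CPM and a Top3b-KO mean of 679 ± 21.3 CPM (SD, n = 3), Gvin-ps6 at 340 ± 7.17 and 380 ± 4.81 CPM, and Gvin-ps7 at 634 ± 15.1 and 704 ± 11.0 CPM. How much sequence these copies share was not measured, so their counts may not be separate. In each of these 3 genes every Top3b-KO library was above every WT library. The share over all tested genes was 5.39%, but genes picked on seen values cannot be weighed against it. The log2 fold changes were 0.12, 0.16 and 0.15. None passed, with adjusted p of 0.91, 0.83 and 0.86 by edgeR with Benjamini-Hochberg adjustment. Irgq, a relative of the immunity-related GTPases, also lay outside the lists and was picked after its values were seen. Irgq was lower in every Top3b-KO library, with a WT mean of 48.6 ± 2.22 CPM against 45.5 ± 0.706 CPM (log2 fold change -0.092, adjusted p 0.93 by edgeR). Of all tested genes, 5.63% lay entirely below, a share that likewise cannot weigh a picked gene.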
